A study of Mus musculus with 12 samples.

Results

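Signals of 9 B cell genes were examined in the thymus of neonatal mice: Cd79a, Cd79b, Blnk, Pax5, Ebf1, Ms4a1, Cd22, Cr2 and Fcrla, out of 19938 genes that the array measured through probe sets with a single symbol. The 9 are the signalling chains of the B cell receptor, its adaptor, factors that fix B cell identity and markers that B cells carry, and they were chosen by these roles with earlier values of these data known, sex differences of B cell genes among them. Had a gene had several probe sets, the brightest over all arrays would have stood for it, but each of the 9 had only 1. The tissue was thymic epithelium/stroma of day 7 pups, and total RNA was measured on 12 Affymetrix mouse GeneChip 1.0 ST arrays, 1 colour each. The pups were FCG mice on a C57BL/6J background, in which the testis-determining gene Sry has been taken off the Y chromosome and put on an autosome, so that testes or ovaries are inherited apart from XY or XX chromosomes. The groups were XY gonadal males (XYM, 2 arrays), XX gonadal males (XXM, 4 arrays), XY gonadal females (XYF, 3 arrays) and XX gonadal females (XXF, 3 arrays). The labels name no hormone or drug given to these pups. Neither the labels nor the methods state how many pups gave the RNA of an array, and p-values below therefore describe the spread between arrays, which may be technical.

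B cells are a minor population of the normal thymus, where they lie mostly in the medulla and at its border with the cortex, and they can arise from progenitors inside the organ or enter from blood. They present antigen to thymocytes and take part in the deletion of self-reactive T cells. On a B cell, membrane immunoglobulin sits with the Cd79a and Cd79b chains, whose phosphorylated tails start a signal that Blnk carries on, while Ebf1 switches on the B lineage program in progenitors and Pax5 holds it in place. Several of these genes are not confined to B cells: Ebf1 is also active in fat and mesenchymal progenitors, and Blnk in myeloid cells.

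Promoter windows, the 250 bases before the annotated start of a gene, were read from a RefSeq table of the mouse assembly GRCm38.p6 for 7 of the 9 genes, 8 windows in all because Ebf1 has a pair of starts, and those of Cd79b and Ms4a1 were not analysed here. The windows of Cd22, Cd79a and Fcrla are printed because Cd22 with Fcrla and with Cd79a had the highest rank correlations among pairs of the 9, and that of Blnk because it holds an octamer. Capitals mark matches to a core bound by Ebf1, TCCC and GGGA with any 2 bases between them, to the octamer ATGCAAAT of immunoglobulin promoters, and to the E-box CAGGTG bound by E2A, on either strand. No matches overlapped.
Cd22, chr7:30879029-30879278, minus strand: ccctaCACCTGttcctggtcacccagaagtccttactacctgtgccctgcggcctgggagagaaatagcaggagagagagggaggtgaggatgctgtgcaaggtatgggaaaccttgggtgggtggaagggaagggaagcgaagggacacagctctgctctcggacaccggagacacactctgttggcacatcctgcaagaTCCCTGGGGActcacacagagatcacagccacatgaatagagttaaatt
Cd79a, chr7:24897247-24897496, plus strand: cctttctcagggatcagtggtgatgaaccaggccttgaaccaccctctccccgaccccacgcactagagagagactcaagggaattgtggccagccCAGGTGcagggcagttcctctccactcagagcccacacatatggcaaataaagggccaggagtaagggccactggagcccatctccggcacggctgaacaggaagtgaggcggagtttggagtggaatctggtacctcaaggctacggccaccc
Fcrla, chr1:170927584-170927833, minus strand: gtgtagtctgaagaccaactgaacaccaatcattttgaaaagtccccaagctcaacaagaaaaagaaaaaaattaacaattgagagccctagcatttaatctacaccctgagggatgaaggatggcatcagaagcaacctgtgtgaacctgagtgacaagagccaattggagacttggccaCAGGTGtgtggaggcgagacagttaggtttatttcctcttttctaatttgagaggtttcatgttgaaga
Blnk, chr19:40994222-40994471, minus strand: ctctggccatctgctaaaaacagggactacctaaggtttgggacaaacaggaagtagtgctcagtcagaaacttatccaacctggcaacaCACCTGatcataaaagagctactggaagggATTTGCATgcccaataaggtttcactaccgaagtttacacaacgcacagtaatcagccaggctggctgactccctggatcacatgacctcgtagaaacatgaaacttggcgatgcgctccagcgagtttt

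The Ebf1 core was found in the window of 1 member, Cd22, starting 49 bases before the transcription start, and in 0.779% of the 32851 windows of the same length in the table. The octamer was found in 1 member, Blnk, on the opposite strand 130 bases before the start, and in 1.6% of all windows. The E-box occurred in 5 members, Blnk, Cd22, Cd79a, Cr2 and Fcrla, and in 17.2% of all windows. GAGGAAGT, a core bound by PU.1, was in none of the members' windows and in 2.44% of all. A match describes these letters only and was not tied to any signal below.

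Genes that check the labels were right on all 12 arrays. Xist, which coats and silences an X, spanned 40.0 to 79.9 over XY arrays against 8505 to 9884 over XX arrays. The Y gene Eif2s3y spanned 12061 to 13268 over XY arrays against 37.6 to 55.7 over XX arrays, and Sry was between 2524 and 2836 on male arrays and between 415.8 and 564.5 on female ones. Values were intensities that the authors had brought to a common scale, and array medians ran from 327.5 to 345.5. Correlations between arrays over all probe sets (log2) were 0.961 to 0.980. The leading principal component held 32.5% of the variance and set arrays 9 to 12 of the labels' numbering (scores 8.18 to 28.3) apart from the other arrays (-15.7 to -1.91). Arrays 1 to 4, 5 to 8 and 9 to 12 each held equal numbers from males and females, and no source calls these sets a batch. Although the methods describe repeated washing to remove thymocytes, all 11 measured T lineage genes were bright, with Cd8b1 at a mean of 5736 and Cd8a at 5167.5. Markers of cortical epithelium such as Prss16 (mean 8466) and of medullary epithelium such as Krt5 (1717) were also present, so the RNA came from epithelium, stroma and thymocytes together. In bulk RNA of this kind, fewer B cells and less RNA per B cell cannot be told apart.

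The table holds no detection calls, and 1035 probe sets of 1027 olfactory receptors (Olfr), genes hardly used outside the nose, were taken as a reference for background. The 95th percentile of their mean signals was 309.5 and their median was 107. Of all 19938 genes, 11272 had a mean above that 95th percentile and a signal of at least 1 on every array. Of the 9 B cell genes, 3 had a mean above it (Ebf1, Cd79b and Cd22). It was 5 with the 90th percentile, 231.9, which brought in Pax5 and Blnk, and 2 with the 99th, 458.8. Against 170 vomeronasal receptor probe sets it was 6, as Fcrla then passed their 95th percentile of 172. Passing such a level does not establish expression, since Sry, which the females lack, read 415.8 to 564.5 on their arrays. Ms4a1, Cr2 and Cd79a lay above the olfactory receptor median but below each of the 90th, 95th and 99th percentile levels used here. The signals of CD20, of complement receptor CR2 and of the immunoglobulin alpha chain could therefore not be told from background. Levels of different genes are not compared with one another here, because each probe set has its own affinity.

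**Figure D1:**
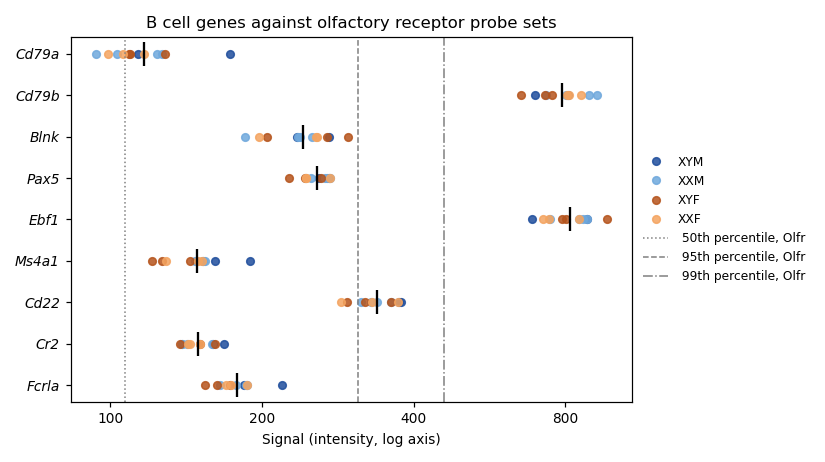
Signal of each of the 9 genes (intensity, log axis) on 12 arrays, 1 point per array coloured by genotype, with the mean over 12 arrays as a black bar. Vertical lines mark where the 50th, 95th and 99th percentiles fell among 1035 probe sets for olfactory receptors: the points of Ebf1 and Cd79b lie above all of these lines, and those of Cd79a, Ms4a1, Cr2 and Fcrla lie below the 95th percentile.

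Cd79a and Cd79b encode the immunoglobulin alpha and beta chains of the B cell receptor, which B cells make together. Cd79a read 172 and 113 in XYM, 93.6, 103, 127 and 124 in XXM, 109, 109.6 and 128 in XYF and 106, 99.02 and 117 in XXF. XYM array 1 stood above all others, and on the remaining 11 arrays the genotypes overlapped. The gene lay at the 55.6th percentile of olfactory receptors with a CV of 17.6% over 12 arrays, where the median CV of olfactory receptor probe sets was 13.8% and that of all named genes 9.11%.

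Cd79b read 809 and 697 in XYM, 925, 804, 892 and 732 in XXM, 752, 729 and 654 in XYF and 808, 859 and 813 in XXF. Of the 5 lowest arrays 4 were XY, and XXM array 10, at 732, was the one XX array among them. Its mean of 789.5 lay at the 99.9th percentile of olfactory receptors, and all 12 arrays were above the 95th percentile computed on the same array. Across arrays the log2 signals of the 2 chains correlated at r = -0.25.

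Blnk, the adaptor that links the activated receptor to phospholipase C, read 272 and 235 in XYM, 251, 238, 185 and 236 in XXM, 296, 205 and 269 in XYF and 257, 198 and 256 in XXF. The 3 lowest arrays, XXM 6, XXF 7 and XYF 8, all belonged to arrays 5 to 8, where the mean was 206 ± 22.6 (SD, n = 4), against 269 ± 20.3 in arrays 1 to 4 and 249 ± 16.9 in arrays 9 to 12 (SD, n = 4 each). The genotypes overlapped throughout, and 1 of 12 arrays passed the olfactory receptor level of its own array.

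Ebf1, the pioneer factor of early B cell progenitors, read 883 and 689 in XYM, 745, 868, 882 and 851 in XXM, 967, 803 and 788 in XYF and 852, 724 and 744 in XXF. XYF array 4 was highest and XYM array 9 lowest, so both extremes were XY. All 12 arrays passed the olfactory receptor level of their own array, and the mean was 816 ± 81.3 (SD, n = 12). Pax5, which commits cells to the B lineage by repressing other fates, read 272 and 259.9 in XYM, 273, 250.2, 267 and 269.6 in XXM, 243, 226 and 262 in XYF and 245, 245 and 273 in XXF. It was the steadiest of the 9, with a CV of 5.91%, and 4 of 6 female arrays lay below all male arrays while XYF array 12 and XXF array 11 lay among the males.

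Of the surface markers, Ms4a1 encodes CD20, a membrane protein of B cells from the late precursor stage on. It read 189 and 161 in XYM, 154, 153, 152 and 147 in XXM, 144, 121 and 126 in XYF and 129, 149 and 152 in XXF. Of the 6 male arrays 5 had a signal above the highest female array, and 4 of the 6 female arrays were below the lowest male array, so the sexes overlapped only between XXM array 10 and a pair of XXF arrays. In order, the genotype means were 175 ± 19.8 (SD, n = 2) in XYM, 152 ± 2.95 (SD, n = 4) in XXM, 143 ± 12.7 (SD, n = 3) in XXF and 131 ± 11.9 (SD, n = 3) in XYF. Neighbours in that order did not differ beyond their spread: the limma 95% confidence intervals of the log2 difference ran from -0.02 to 0.43 for XYM minus XXM, from -0.12 to 0.29 for XXM minus XXF and from -0.35 to 0.08 for XYF minus XXF.

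Cd22, a sialic acid binding receptor that restrains B cell receptor signalling, read 377 and 374 in XYM, 314, 328, 338 and 360.2 in XXM, 321, 295 and 359.9 in XYF and 329.9, 287 and 373 in XXF. Both XYM arrays were high, and so was each array numbered 9 to 12 whatever its genotype, the set spanning 359.9 to 374, while the others spanned 287 to 377. Cr2, the receptor for complement C3d that lowers the threshold of B cells and holds antigen on follicular dendritic cells, read 160.0 and 168 in XYM, 142, 139, 159 and 139 in XXM, 161, 150.4 and 137 in XYF and 143, 144 and 151 in XXF. The 3 highest arrays were XY, but XXM array 6 came close behind them at 159.1, and XYF array 12 was the lowest of the 12.

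Fcrla, an intracellular Fc receptor-like protein of B cells, read 184 and 219 in XYM, 165, 178, 187 and 185 in XXM, 163, 154 and 173 in XYF and 173, 169.9 and 187 in XXF. XYM array 9 stood highest, and the lowest pair were XYF arrays 4 and 8. Its log2 signal followed the leading principal component of the arrays at r = 0.68, close to that of Cd22 at 0.68 and opposite to that of Cd79b at -0.68.

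**Figure D2:**
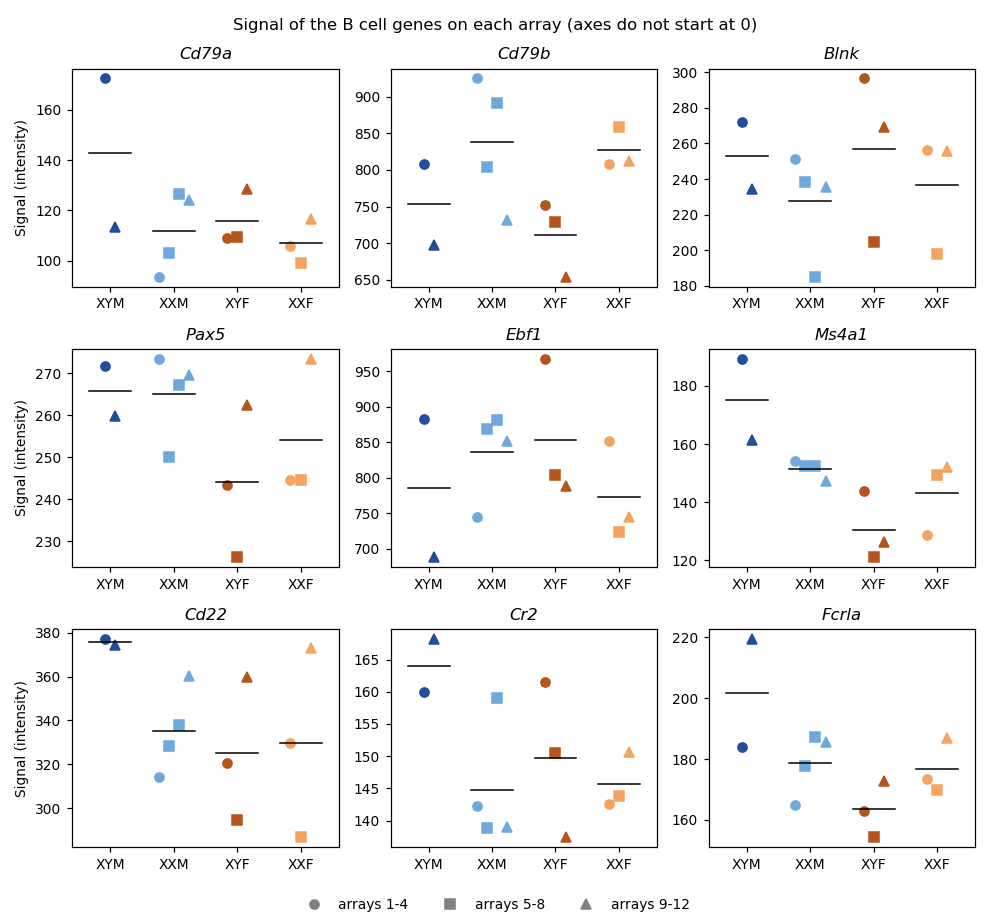
Signal (intensity) of each gene on each array by genotype, with the genotype mean as a line and the marker shape giving the array's number range; the vertical axes do not start at 0. Ms4a1 has its 5 highest arrays among males, Cd79b its 4 highest among XX arrays, and the Cd22 triangles (arrays 9 to 12) are high in every genotype.

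Whether gonadal sex altered these genes was asked first, since the study compared mice with testes and mice with ovaries. In limma, 0 of 9 genes passed an adjusted p under 0.05, where 0.00281% of the 35556 probe sets did, and the lowest adjusted p among the 9 was 0.985. At an unadjusted p under 0.05 it was 2 of 9, Ms4a1 and Fcrla, both higher in males, where 3.03% of all probe sets passed and 1.61% did so higher in males. An unmoderated fit of sex and chromosome complement, as in the methods, gave 0 and 2 of 9 at the same levels (0.00281% and 2.95% of all probe sets). Of the 9, 7 had a log2 difference above 0, with a median of 0.09, against 51.3% of all probe sets and a median of 0.00. Because the list was assembled with sex differences known, its counts and the sex differences of single genes describe these arrays and are no independent evidence, so no permutation p for sex is given.

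Ms4a1 averaged 159.5 ± 15.3 in males and 137 ± 13.1 in females (SD, n = 6 each). On the log2 scale males minus females came to 0.25 with a standard error of 0.07 and a 95% confidence interval of 0.10 to 0.41. It was 0.33 among arrays 1 to 4, 0.18 among arrays 5 to 8 and 0.15 among arrays 9 to 12. Without XYM array 1 the limma difference was 0.20. Its limma adjusted p = 0.985 over all probe sets became 0.386 once array set entered the model, a fit in which 11.5% of all probe sets had an unadjusted p under 0.05.

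Fcrla averaged 186 ± 18.1 in males and 170.1 ± 11.0 in females (SD, n = 6 each), a log2 difference of 0.16 (standard error 0.07). It depended on XYM array 9, without which the difference was 0.09, and its unadjusted p was under 0.05 in 11 of 21 alternative settings, against 21 of 21 for Ms4a1. These settings refit the same arrays, so the counts describe how the fits vary and are no added evidence for a sex difference. Pax5 averaged 265 ± 8.80 in males and 249 ± 16.5 in females (SD, n = 6 each), a log2 difference of 0.09. Cd22 had 349 ± 25.8 in males and 327 ± 34.3 in females (SD, n = 6 each), a difference of 0.12 that was 0.07 without XXF array 7. Cd79a had 122 ± 27.6 in males and 111 ± 10.1 in females (SD, n = 6 each), and its difference of 0.17 was 0.02 without XYM array 1 and 0.32 without XYM array 9, where its unadjusted limma p was under 0.05. For Cd79b, Cr2, Blnk and Ebf1 the log2 differences were 0.05, 0.06, -0.03 and -0.00. Expressed as male over female ratios, the 95% intervals of the 9 genes fell inside 0.817 to 1.34. In 0 of 9 genes were the male and female arrays fully apart, as they were in 0.0731% of all probe sets.

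The 2 genotype pairs behind this contrast gave unlike values for Ms4a1 and Fcrla. Between XYM and XYF, 0 of 9 passed an adjusted p in limma (lowest 0.982, 0.00562% of all probe sets) and 2 an unadjusted one, Ms4a1 and Fcrla (3.14% of all). Their log2 differences were 0.42 (95% confidence interval 0.18 to 0.67) and 0.30 (0.07 to 0.53). Between XXM and XXF, 0 of 9 passed at either level (0.00281% and 1.45% of all), and the same genes had differences of 0.08 (-0.12 to 0.29) and 0.02 (-0.17 to 0.21). The difference between the pairs was 0.34 for Ms4a1 (standard error 0.14, adjusted p = 1.00 in limma) and 0.28 for Fcrla. Of the 9 genes 8 had an interaction above 0, all but Ebf1, against 49.2% of all probe sets. For the interaction 0 of 9 passed an adjusted p in limma (0% of all probe sets) and 1, Ms4a1, an unadjusted one (1.54%). XYM rested on 2 arrays.

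Sex chromosome complement was the other factor of the design. In limma 0 of 9 genes passed an adjusted p for XY against XX (lowest 1.00), where 0.0366% of all probe sets did, and 1 of 9 had an unadjusted p under 0.05 (2.55% of all). The unmoderated fit gave the same counts (0.0225% and 3.01% of all). That gene, Cd79b, averaged 728 ± 58.0 (SD, n = 5) on XY arrays and 833 ± 64.2 (SD, n = 7) on XX arrays. Its log2 difference, XY minus XX, was -0.19 (standard error 0.08, 95% confidence interval -0.35 to -0.02). Of the 5 XY arrays 3 lay below all XX arrays, and 4 of the 7 XX arrays above all XY arrays. The exact permutation test over 792 groupings gave a two-sided unadjusted p of 0.0189, with differences of -0.15, -0.22 and -0.19 in the 3 array sets (the set of arrays 5 to 8 holds 1 XY array) and p = 0.0139 within them. These are the lowest of the 9 genes, without adjustment, and the genes were chosen with earlier results of these data known. They are therefore no independent evidence, and the test within sets was added after the data were seen. Without XYM array 9 the difference was -0.13, and its unadjusted limma p was over 0.05 without that array and also without XXM array 2, XXM array 6, XXF array 7 or XYF array 12. XY and XX arrays did not separate fully in any of the 9 (0 of 9, against 0.166% of all probe sets).

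Thymocyte genes had the same sign as Cd79b. All 11 measured T lineage genes had an XY minus XX log2 difference below 0 (0 of 11 passed in limma at an adjusted or an unadjusted p), with a median of -0.10. Of all probe sets, 52.6% lay above 0. The summed signal of the 11 genes was 34268 to 35172.5 on XY arrays and 35879.5 to 38807 on XX arrays, with no overlap and no gene at 0. The summed dendritic cell markers ran from 4708 to 5206 on XY arrays and from 4536 to 4865 on XX arrays. Over the 12 arrays Cd79b correlated with the mean log2 signal of the T lineage list at r = 0.72 (permutation p = 0.00766) and rho = 0.74 (p = 0.00802), r = 0.73 without the 2 arrays farthest from the median and 0.80 with array set means taken off. With the dendritic cell list it was r = -0.71 (permutation p = 0.0100) and rho = -0.63 (p = 0.0314). These were among 63 relations of members to 7 cell type lists, chosen after the data were seen, of which 0 passed Benjamini-Hochberg adjustment (0.177 for both) and 11 had an unadjusted p under 0.05. The others of these 11 included Blnk with medullary epithelium (r = 0.72), macrophages (0.64) and dendritic cells (0.60), and Ebf1 with mesenchyme (0.62). Cd79a and Cd22 were in it with fat (0.68 and 0.63) and dendritic cells (0.63 for both), and Pax5 with cortical epithelium (-0.68). The part of thymocyte RNA in the Cd79b values was not tested.

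The other 8 genes did not have a limma p under 0.05 for chromosome complement with all 12 arrays, even without adjustment. Cd79a had 127 ± 26.8 (SD, n = 5) on XY arrays and 109.8 ± 12.7 (SD, n = 7) on XX arrays, a log2 difference of 0.22 that was 0.07 without XYM array 1 and 0.37 without XYM array 9, where its unadjusted p was under 0.05. Cr2 had 155 ± 11.9 (SD, n = 5) on XY arrays and 145 ± 7.29 (SD, n = 7) on XX arrays, a difference of 0.11 (exact permutation p = 0.0972). Of the 9 genes 7 lay above 0 with a median of 0.04, against 52.6% of all probe sets with a median of 0.01. The 95% intervals of the XY to XX ratio lay between 0.783 and 1.40. Between XYF and XXF, and between XYM and XXM, 0 of 9 genes passed at an adjusted or an unadjusted p in limma, where 0.0169% and 0.951% of all probe sets passed in the XYF pair and 0.0197% and 3.41% in the XYM pair. Limma's F test over the 4 genotypes called 0 of 9 (0.0281% of all), and Ms4a1 was the 1 gene with an unadjusted p under 0.05 (1.99% of all).

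**Figure D3:**
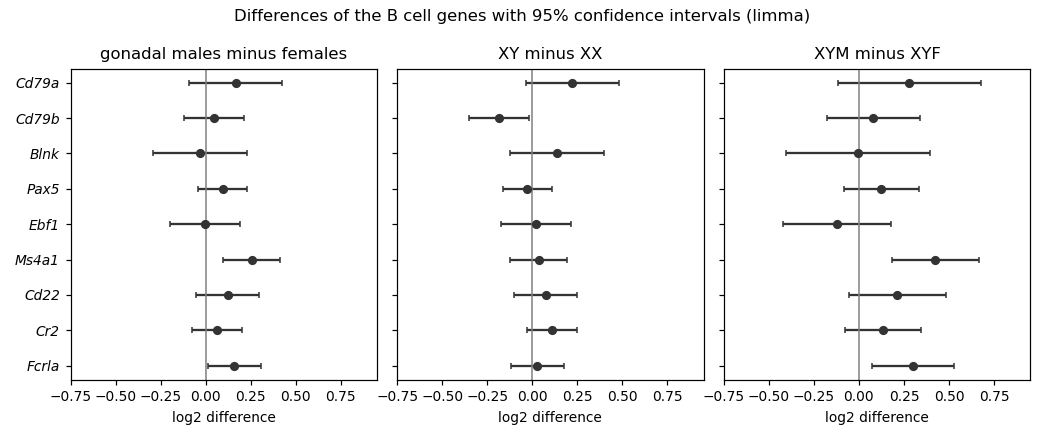
Log2 differences of the 9 genes with 95% confidence intervals from limma, for gonadal males minus females, XY minus XX and XYM minus XYF. The intervals of Ms4a1 and Fcrla lie above 0 for sex and for XYM minus XYF and that of Cd79b below 0 for XY minus XX, none with an adjusted p under 0.05.

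Whether the 9 genes were high and low on the same arrays was measured for all 36 pairs. Of these, 25 had an r above 0, the median r was 0.25 and the range -0.36 to 0.75. Benjamini-Hochberg adjustment over the 36 pairs called 0, by Pearson's r or by Spearman's rho, and 4 and 3 pairs had an unadjusted permutation p under 0.05. The closest pair was Cd22 with Fcrla (r = 0.75, permutation p = 0.0034, adjusted 0.122, rho = 0.79, p = 0.00321, adjusted 0.107), whose r was 0.71 and 0.70 without the 2 arrays farthest from the median of each gene in turn, and 0.68 with array set means taken off. Cd22 with Pax5 had r = 0.71 (permutation p = 0.0112, adjusted 0.137) and rho = 0.52 (p = 0.0858). Cd79a with Cd22 had r = 0.68 (permutation p = 0.0114, adjusted 0.137) and rho = 0.76 (p = 0.00597, adjusted 0.107).
Without XXM array 2, the pair of Cd22 and Pax5 passed by r (r = 0.85, adjusted p = 0.036 by permutation) and not by rank (rho = 0.81, adjusted p = 0.117). Pax5 with Ms4a1 had r = 0.62 (permutation p = 0.032, adjusted 0.288) and rho = 0.60 (p = 0.0436), but r was 0.43 and 0.31 without the 2 arrays farthest from the median of each gene, so that this relation rested on those arrays. With array set means taken off the median r was 0.31 and 0 of 36 pairs passed, 5 of them with an unadjusted p under 0.05. With genotype means taken off instead, the median r was 0.20 and 0 of 36 passed, 3 with an unadjusted p under 0.05. Cd22 then had an r of 0.65 with Fcrla, 0.74 with Pax5 and 0.56 with Cd79a, whereas Ms4a1 with Fcrla was -0.25, against 0.54 as measured, and Ms4a1 with Cd22 was 0.03, against 0.45.

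The genes fell into unlike profiles. Ms4a1 had a median r of 0.45 with the 8 other members, against a median of 0.01 with all 19933 genes that could be compared, and 6 of its 8 values lay above the 95th percentile of those genes, 0.37. Its r of 0.45 with each of Cd79a, Cd22 and Cr2 became -0.17, 0.28 and 0.34 without XYM array 1, and its rho with Cd79a was 0.03. With Pax5, Fcrla and Cd79b its lowest r with 1 array left out was 0.43, 0.39 and 0.20, without an XYF array. With genotype means taken off, the median was 0.30 for Ms4a1, 0.31 for Cd22, 0.35 for Pax5, 0.18 for Cd79a and 0.0032 for Fcrla. As measured, Cd22 had a median of 0.44, Fcrla of 0.38, Cd79a of 0.34 and Pax5 of 0.32. Cd79b and Ebf1, the brightest relative to olfactory receptors, had medians of -0.09 and 0.01, with 0 of 8 members above the corresponding 95th percentiles. The r of Cd79b with Pax5 was 0.23 as measured and -0.08 with genotype means taken off. With array set means taken off it was 0.76 (permutation p = 0.00411, adjusted 0.0763). Blnk and Cr2 had medians of 0.16 and 0.16, also with 0 of 8. These correlations are across arrays that share array set and genotype, and genes are not independent of one another.

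**Figure D4:**
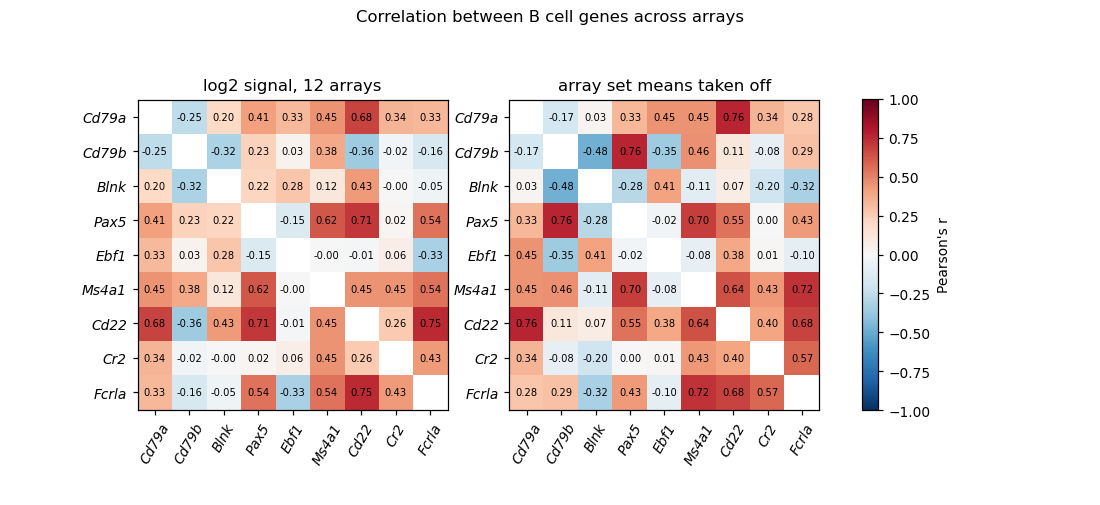
Pearson's r between the log2 signals of each pair of genes over 12 arrays, as measured (left) and with the mean of each array set taken off (right). Cd22 with Fcrla, Pax5 and Cd79a and Ms4a1 with Pax5 and Fcrla are above 0 on both sides (Ms4a1 with Fcrla was -0.25 with genotype means taken off). Cd79b is below 0 with Blnk and Cd79a on both, and with Pax5 it is 0.23 on the left and 0.76 on the right.

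Among the 11271 or 11272 genes brighter than the olfactory receptor reference, those whose profile over the 12 arrays was most like each member are given as a description. For Blnk they were Adap2 (r = 0.96) and the beta chains of the receptors for GM-CSF and IL-3, Csf2rb2 and Csf2rb (both 0.94), which are close paralogs of each other. For Cd79b they were 2210016F16Rik (0.94), the heat shock cochaperone Dnajb4 (0.93) and the nuclear receptor corepressor Nrip1 (0.91). For Ebf1 they were the phosphatase subunit Ppp2r3a, Mamld1 and the endocytic regulator Rin2 (all 0.92). Cd22 was nearest to Hemk1 (0.92), Igsf9 (0.91) and the securin gene Pttg1 (0.90), and Fcrla to the proteoglycan gene Spock1 (0.92), Lce1j (0.88) and 3425401B19Rik (0.87). Cr2 was nearest to A630089N07Rik (0.88), Eppk1 (0.82) and Tmbim4 (0.80), and Pax5 to the small GTPase Rab6b (0.83), the death receptor Tnfrsf25 (0.81) and Fam78a (0.79). For Cd79a they were the NF-kappaB modulator Nfkbiz (0.79), Mmp28 (0.79) and Dclk1 (0.78), and for Ms4a1 Pmpca (0.78), the retinol transporter Stra6 (0.76) and Timd4 (0.74), a phosphatidylserine receptor of macrophages.

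Other genes of the B cell pathways were counted by list. Of all 19938 genes, 11272 lay above the olfactory receptor 95th percentile, so a count above it does not by itself set a list apart. Of 12 measured genes of B cell receptor signalling, 9 lay above the olfactory receptor 95th percentile, led by the tetraspanin Cd81 (mean 2844), the exchange factor Vav1 (1998), the phosphatase Ptpn6 (1139) and the kinase Syk (596). The kinase Btk, at 151, lay below it. For sex 0 of 12 passed in limma at an adjusted or an unadjusted p, 4 of 12 were above 0 (51.3% of all probe sets) and the median log2 difference was -0.00. For XY minus XX 0 of 12 passed an adjusted p, 5 of 12 were above 0 (52.6% of all probe sets) and the median was -0.03. At an unadjusted limma p under 0.05 it was 3 of 12, where 2.55% of all probe sets passed: the inhibitory receptor Cd72 (log2 difference 0.24) and the adaptors Pik3ap1 (0.17) and Dapp1 (-0.19), of which Cd72 and Dapp1 are named after their values were seen.
The 12 other B lineage transcription factors had 8 above the reference, among them Ikzf1 (2689.7), Ikzf3 (2352), Tcf3 (1508) and Foxo1 (1322), which thymocytes also use. In limma 0 of 12 differed by sex, with a median of -0.01. Of 14 other surface receptors 9 were above the reference, led by Cd83 (2648), Ly6d (1698), Cd37 (1578.5) and Cd40 (1015). In limma 0 of the 14 differed by sex, 8 lay above 0 (51.3% of all probe sets) and the median was 0.03. In this list Fcrl1, an Fc receptor-like protein of mature B cells, had the lowest limma p for sex, over 0.05 without adjustment, at a mean of 209.

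Of 9 listed immunoglobulin genes 2 were measured, and the others, Igkc and Ighd among them, were not analysed. Ighm, the mu heavy chain, had a mean of 436. Igha, the alpha heavy chain, had 185, below the olfactory receptor reference. Ighm averaged 453 ± 45.3 in males and 419 ± 39.2 in females (SD, n = 6 each), a log2 difference of 0.14 (adjusted p = 0.985 in limma), and 0 of the 2 passed at either level. Of 9 genes of B cell precursors, 7 were above the reference, but the brightest, Rag1 (5298), Cd93 (2026), Dntt (1939) and Rag2 (1625), are also used by thymocytes or by myeloid and endothelial cells. Igll1, the surrogate light chain of pre-B cells, averaged 286 ± 23.5 in males and 255 ± 29.2 in females (SD, n = 6 each), below the reference, with a log2 difference of 0.19. It was the 1 gene of the 9 with an unadjusted limma p under 0.05, and its limma adjusted p = 0.985.
Plasma cell genes gave 3 of 7 above the reference, Xbp1 (mean 1863), Mzb1 (486) and Sdc1 (470). Jchain, the joining chain of secreted immunoglobulin, was the dimmest of the 7, at 80.9 and below the median of olfactory receptors. In limma 0 of 7 differed by sex at either level, with a median of 0.04.

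Stroma and other cells make the signals that draw B cells and keep them alive. All 7 measured niche and survival genes had a male minus female difference below 0, with a median of -0.08, where 51.3% of all probe sets lay above 0. In limma 0 of the 7 genes passed at an adjusted or an unadjusted p. They included the chemokine Cxcl12 (mean 2374), Flt3l (1019), Il7 (791) and Kitl (769). Of 8 MHC class II genes, which B cells, dendritic cells and epithelium share, all were above the reference, led by Cd74 (5100.0), H2-Ab1 (4367), H2-Aa (4150.4) and H2-Eb1 (2849), with 2 of 8 above 0 for sex and a median of -0.07 (0 of 8 passed in limma at either level).

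Markers of other cells were counted beside the sex differences of Ms4a1 and Fcrla. For male minus female, 51.3% of all probe sets lay above 0. Among the markers it was 5 of 6 for fat, 8 of 9 for mesenchyme and 5 of 7 for macrophages, with medians of 0.14, 0.05 and 0.09. Above the olfactory receptor 95th percentile lay 3 of the 6 fat, 9 of the 9 mesenchymal and 5 of the 7 macrophage markers. The fat marker below 0 was the brightest, Fabp4 (mean 1859, log2 difference -0.03), which weighs most in the summed fat signal. For cortical epithelium it was 0 of 7 markers, with a median of -0.08. In limma none of these markers passed at an adjusted or an unadjusted p, and no marker was at 0. Summed fat markers ran from 2852 to 3813 in males and from 2994 to 3768 in females, macrophage markers from 3287 to 4119.6 in males and from 3079 to 3928 in females, mesenchymal markers from 10838 to 16209.5 in males and from 10895 to 16541 in females, and cortical epithelial markers from 26090.3 to 31081 in males and from 28537 to 32280.1 in females. All of these ranges overlapped between the sexes, and the part of these cells in the Ms4a1 and Fcrla values was not tested.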

How the data were processed

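RNA of day 7 thymic epithelium/stroma was measured on 12 arrays, grouped by the genotype in the sample labels, with 0 columns of the table left without a sample. The table deposited by the authors gave each of 35556 probe sets a linear intensity. Affymetrix Expression Console 1.1 and PLIER stand in the submitters' processing notes, RMA with quantile normalization in the study's methods, and it could not be settled which produced these values. The deposited values were used without further normalization and log2 was taken of them. PLIER's settings are not given in the sources used here. Low signals include probe background, which shrinks log2 differences of dim genes. A value below 1 occurred for 130 probe sets, none of them a B cell gene described here. With arrays, their number limits the precision.

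Genes were named from the array annotation, with symbols brought up to date through a RefSeq table of GRCm38.p6. There were 21789 probe sets with 1 symbol, 1621 with several and 12146 with none, and 999 genes had more than 1 probe set, of which the brightest was used. Promoter sequences came from RefSeq (GRCm38.p6).

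All probe sets were fitted with limma 3.58.1 (lmFit, eBayes) in R 4.3.3 with 1 mean per genotype and a common spread, needed because XYM had only 2 arrays. Benjamini-Hochberg adjustment covered every probe set, with a threshold of 0.05. Single genes were tested with two-sided exact permutation tests, and pairs with 100000 permutations (scipy 1.17.1). Means ± SD are on the linear scale. The code was tested on simulated data. The members and gene lists were chosen with earlier results of these data known. Named were the 9 members, the 3 closest neighbours of each, and genes from other lists. In those lists a gene qualified if it was among the 4 brightest, was called or had the lowest unadjusted p for sex. Not every gene that qualified was named, some lists were given mainly as counts or sums, and others are not described. Btk and Jchain were named after their values were seen. Alternatives were quantile normalization, an offset of 16 before log2, a minimum mean signal of 200, probe sets with 1 symbol, averaging the probe sets of a gene, an additive model, the methods' two-way ANOVA, eBayes with trend and robust fitting, array weights, array sets as a block, other reference levels and leaving out each array. The permutation tests within array sets and after quantile normalization, and the relations to cell type lists, were added after the data were seen.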

Additional observations from a re-analysis of the deposited data

Results flagged for a closer look

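Each of the 9 genes was checked for a single array far from the rest in the 6 males, the 6 females and the 4 XXM arrays, 27 groups in all, and chance alone marks about 1 group in 20. Among males, Ms4a1 on XYM array 1 stood apart at a signal of 189, with a gap to the next array of 0.668 of the whole range. The male minus female log2 difference of Ms4a1 was 0.20 without that array and 0.25 with it. Among the XXM arrays, Cr2 on array 6 stood apart at 159, with a gap of 0.836 of the range.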

How the results depend on the processing

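For gonadal sex, chromosome complement, their interaction, the F test and the 4 pairs of genotypes, limma called 0 of 9 genes in every alternative run, with lowest adjusted p-values of 0.344 to 1.00 over these results, and the counts at an unadjusted p under 0.05 ran from 0 to 3. The filter at a mean signal of 200 left 5 genes, without Cd79a, Ms4a1, Cr2 and Fcrla. Genes above the background reference numbered 5 with the 90th percentile of olfactory receptors, 2 with their 99th, 6 with vomeronasal receptors and 3 after quantile normalization or with 1 array left out. An exact permutation by sex put 1 gene, Ms4a1, under 0.05, also within array sets, and 0 after quantile normalization. It is no independent evidence, since sex differences were known when the genes were chosen. Pairs of genes that passed numbered 0 to 1 when 1 array was left out. The sex difference of Cd79b was -0.00636 without XYM array 1, with other arrays left out up to 0.100. That of Blnk was 0.0064 with array weights and -0.109 to 0.0244 with 1 array left out. That of Ebf1 was 0.0190 after quantile normalization, 0.0161 in the additive model, 0.00766 with array weights and -0.0943 to 0.0847 with 1 array left out. With 1 array left out, the XY minus XX difference was -0.0697 to 0.109 for Ebf1, -0.0228 to 0.0929 for Ms4a1 and -0.0355 to 0.0920 for Fcrla. The causes were not tested. The sex difference of Cr2 was 0.032 without XYF array 12. No other member difference changed sign. No paired analysis was possible because the array numbers of the labels are all different, so no number ties an array to one of another genotype. The array sets, with 2 males and 2 females each, were used as a block and changed no call. Signals near background limit Cd79a, Ms4a1, Cr2 and Fcrla, and 2 XYM arrays limit all contrasts with XYM.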
